A study of Mus musculus with 12 samples.

Results

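The comparison described here is that of F9 cells labelled as Rarg knockout with wild type F9 cells when neither had been given retinoic acid (RA). It rests on 6 of the 12 arrays of the series, the 3 knockout and the 3 wild type arrays of cells kept for 24 h in the ethanol vehicle, which were chosen by their labels. F9 is a mouse teratocarcinoma line. The other 6 arrays hold the same lines after 24 h in 1 µM RA, 3 arrays for each genotype. They share the estimates of spread and run with the vehicle arrays in 1 fit, and they show whether a difference between the lines was also present in RA. A fit of the 6 vehicle arrays alone, with the run as a block, called 769 genes higher and 1104 lower, of which 750 and 1093 are among those reported below. The labels give neither the way Rarg was disrupted nor whether the knockout line is 1 clone, and they do not name separate cultures behind the 3 arrays of each group. Genotype therefore cannot be told apart from clone and from time in culture, and each p-value speaks only of array-to-array spread, which may be technical.

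Rarg encodes RARγ, a nuclear receptor that binds DNA as a dimer with RXR, recruits corepressors when it has no ligand and coactivators when RA is bound. F9 cells grow as embryonal carcinoma cells that express the pluripotency factors of the early embryo. With RA they turn into cells like those of the primitive endoderm and, depending on the conditions, into parietal endoderm, which lays down a thick basement membrane, or visceral endoderm, which takes up maternal nutrients by endocytosis. A small share of F9 cells is known to differentiate without added RA.

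Signal was measured on a whole-genome mouse array, and 45037 probe sets were tested, which represent 18193 named genes. A signal of 88.82 was taken as the background level, which is the 95th percentile among 87 probe sets for taste, trace amine, vomeronasal and olfactory receptors, and 10605 genes had a mean above it. Arrays were processed in 3 fluidics runs of 4, each with 1 array of every group, and the run was a block in every test. Knockout vehicle replicate 3 stood apart: its median signal was 142.9 against 71.18 to 94.62 on the other 11 arrays, and its receptor probe sets reached 231.6 against 61.4 to 99.1. It had also waited 316 min before the scan. Knockout RA replicate 1 had waited 238 min, with a median signal of 91.87 and a receptor level of 71.07. Some results are given with and without knockout vehicle replicate 3, and the others include it. Knockout vehicle replicates 1 and 2 were on another chip lot than the other 4 vehicle arrays.

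Rarg itself was not lower in the knockout. Its signal was 1356, 1263 and 1809 on the wild type arrays and 1716, 1672 and 1521 on the knockout arrays, so that the groups overlapped. The difference was 0.16 ± 0.168 (SE) on the log2 scale with a limma adjusted p of 0.639, and a second probe set gave 0.09 ± 0.164. Whether these probes fall inside the disrupted stretch is not given in the sources used here, so this reading does not check the labels. The array of each group correlated better with its own group than with the other genotype on all 6 vehicle arrays. The lowest such pair of mean correlations was that of knockout replicate 3, 0.923 with its own group and 0.898 with the wild type.

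Without RA the lines differed in 4235 probe sets (9.4% of those tested) at a limma adjusted p under 0.05, or 1051 genes higher in the knockout (5.78%) and 1414 lower (7.77%). Of the higher genes 247 differed by more than 1 on the log2 scale and 42 by more than 2. Of the lower genes 513 and 98 did. The 3 knockout arrays did not overlap the 3 wild type arrays in 865 of the higher and 1273 of the lower genes, against 24.1% of all genes in either direction. The median change over all genes was 0.13, and 0.0 over genes above background. Of the 10605 genes above background 9.4% were called higher and 13.1% lower. The counts of the gene lists below are to be read against these shares and those over all genes. Without knockout replicate 3, 763 of the higher and 1065 of the lower genes were still called, among 886 and 1231 genes in all (11.6% of genes in either direction).

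The split between higher and lower genes depends on the scaling. When each array was centred on its median, which lowers all genes of the bright replicate 3, 125 genes were higher and 928 lower. Without the run block the counts were 438 and 730. With run and chip lot as blocks they were 845 and 1301, and 237 and 468 when replicate 3 was also left out, which puts all vehicle arrays of the knockout on 1 lot and leaves the lot effect to the RA arrays. Of the 210 genes besides Rarg that were followed one by one, the named genes included, none changed direction under any of the 26 settings. Most genes named by rule had been picked as called on these same arrays, which made that outcome likely in advance. Only 102 of the 210 kept their call under every setting.

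**Figure D1:**
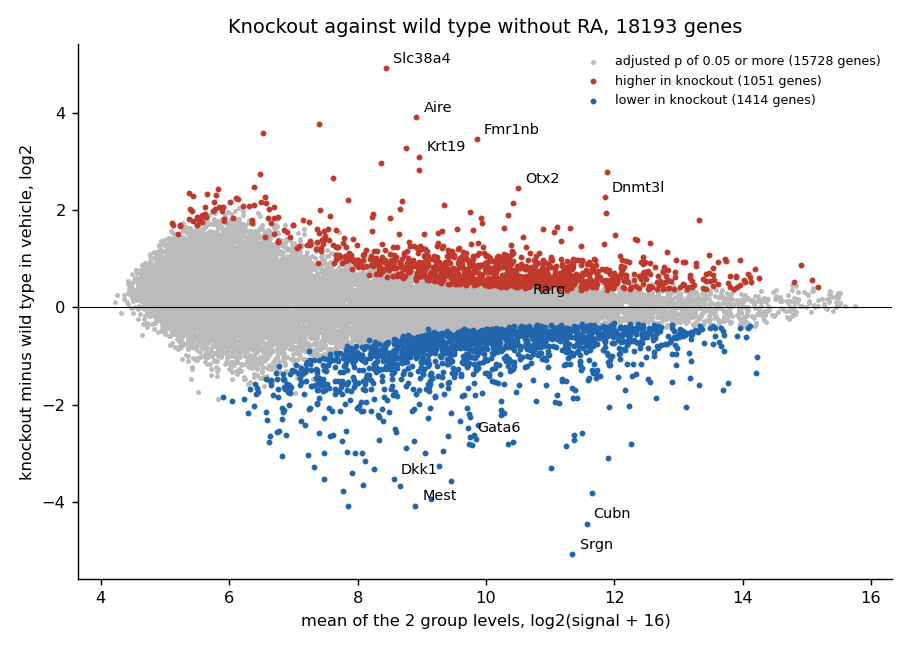
Knockout minus wild type in vehicle on the log2 scale against the mean level of the groups, log2(signal + 16), with 1 point for each of 18193 genes. Red points are the 1051 genes called higher and blue points the 1414 called lower, and Srgn lies lowest and Slc38a4 highest.

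The 5 genes that mark the comparison were given as its markers at the outset, so large changes in them were likely in advance. For scale, the median change was 0.74 over the higher and -0.81 over the lower genes. Srgn, the core protein of the secretory granule proteoglycan serglycin, had a signal of 15596, 16203 and 11824 in wild type cells and 582.1, 568.3 and 203.5 in knockout cells. It fell by 5.08 ± 0.205 (SE, log2 scale; limma adjusted p = 4.91e-13), the largest fall among the genes that the rule on named genes allowed. Dkk1, a secreted antagonist of Wnt signalling, read 1365, 1223 and 975.5 in wild type and 154.4, 125.6 and 29.29 in knockout cells, a fall of 3.53 ± 0.248 on the same scale (limma adjusted p = 1.98e-09). Both genes were low on every knockout array and lowest on replicate 3.

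Mest, an imprinted gene that is expressed from the paternal copy, read 2268, 2109 and 1388 in wild type cells and 112.5, 135.3 and 55.84 in knockout cells. It fell by 4.08 ± 0.209 on the log2 scale (limma adjusted p = 2.4e-11). The other 2 genes went the opposite way.

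Slc38a4, an amino acid transporter gene that is also imprinted and paternally expressed, read 48.41, 65.43 and 31.24 in wild type cells, at or below the background of each array. In knockout cells it read 1865, 1839 and 1909, which is at least 26.7-fold higher (limma adjusted p = 1.99e-09). Fmr1nb, an X-linked gene expressed mainly in testis, rose from 291.5, 247.4 and 255.9 to 3015, 3069 and 3031, or by 3.45 ± 0.135 on the log2 scale (limma adjusted p = 4.91e-13). For both genes the knockout arrays lay close together, replicate 3 included, and far above every wild type array.

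**Figure D2:**
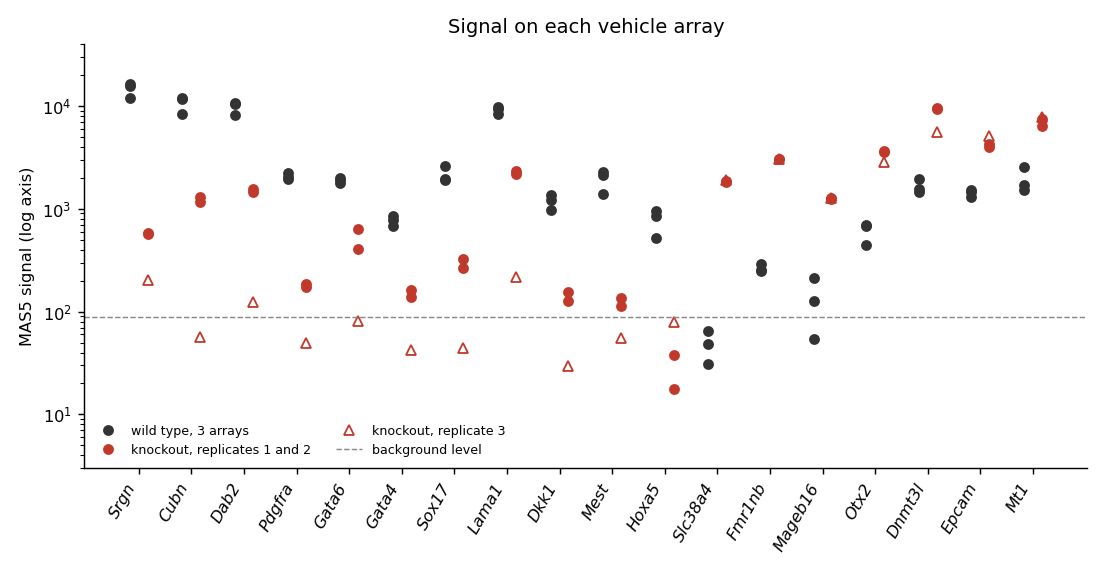
MAS5 signal, on a log axis, of 18 genes on each of the 6 vehicle arrays, with wild type in black, knockout replicates 1 and 2 as filled red circles and knockout replicate 3 as an open triangle. The groups do not overlap for any of these genes, and replicate 3 is the lowest array for most of the genes that are lower in the knockout.

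The windows around the start sites of these 5 genes are shown because imprinted and testis genes are known to be controlled by methylation at CpG sites. They run from 250 bases before to 50 bases after a start in RefSeq (GRCm38.p6), 5′ to 3′ on the strand of the gene, with each CpG in capitals. Where a gene has several starts 1 is shown. The windows are chr10:62527396-62527695 (minus strand) for Srgn, chr19:30549447-30549746 (minus) for Dkk1, chr6:30737800-30738099 (plus) for Mest, chr15:97055907-97056206 (minus) for Slc38a4 and chrX:68761589-68761888 (plus) for Fmr1nb.
Srgn: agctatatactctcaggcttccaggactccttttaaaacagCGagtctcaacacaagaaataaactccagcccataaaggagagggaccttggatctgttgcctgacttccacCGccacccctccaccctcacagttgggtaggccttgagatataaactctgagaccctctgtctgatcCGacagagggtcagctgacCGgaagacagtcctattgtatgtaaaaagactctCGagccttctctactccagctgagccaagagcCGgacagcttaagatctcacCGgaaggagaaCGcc
Dkk1: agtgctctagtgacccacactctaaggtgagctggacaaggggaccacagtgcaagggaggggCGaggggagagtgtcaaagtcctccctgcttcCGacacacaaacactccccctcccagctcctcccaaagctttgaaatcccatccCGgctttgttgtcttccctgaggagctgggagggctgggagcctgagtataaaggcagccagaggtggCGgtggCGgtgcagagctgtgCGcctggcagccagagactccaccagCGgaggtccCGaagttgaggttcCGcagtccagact
Mest: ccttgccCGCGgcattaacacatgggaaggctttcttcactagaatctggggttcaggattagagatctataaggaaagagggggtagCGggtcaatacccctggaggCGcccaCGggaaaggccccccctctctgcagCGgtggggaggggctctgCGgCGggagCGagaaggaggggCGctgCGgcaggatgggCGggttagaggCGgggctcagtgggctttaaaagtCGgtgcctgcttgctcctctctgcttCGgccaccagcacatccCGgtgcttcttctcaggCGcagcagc
Slc38a4: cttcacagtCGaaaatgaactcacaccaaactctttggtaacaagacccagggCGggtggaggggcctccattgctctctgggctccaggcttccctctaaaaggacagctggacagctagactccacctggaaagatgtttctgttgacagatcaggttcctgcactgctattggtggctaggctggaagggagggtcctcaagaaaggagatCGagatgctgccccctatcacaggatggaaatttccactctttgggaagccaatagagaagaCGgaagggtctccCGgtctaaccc
Fmr1nb: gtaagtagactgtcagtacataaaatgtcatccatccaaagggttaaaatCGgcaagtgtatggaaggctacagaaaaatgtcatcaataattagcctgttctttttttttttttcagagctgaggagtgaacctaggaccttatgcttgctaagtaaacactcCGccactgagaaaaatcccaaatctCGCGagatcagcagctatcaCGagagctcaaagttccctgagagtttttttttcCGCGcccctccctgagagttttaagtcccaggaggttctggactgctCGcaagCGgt
The Mest window shown holds 17 CpG, Dkk1 and Fmr1nb 9 each, Srgn 8 and Slc38a4 5. The counts depend on the start, since other starts of Mest hold 8 and 17 CpG and another start of Srgn holds 4. The other starts of Slc38a4 hold 5 CpG each. The median was 22 over the 8656 windows of genes above background and 17 over all 14452 windows. Among genes called with and without replicate 3, the median was 8.5 for the 22 with a window that rose by more than 2 on the log2 scale. It was 11 for the 76 that fell by as much. Windows with at most 5 CpG made up 6 of the 22 and 17 of the 76, against 22.1% of all windows and 6.33% of those of genes above background. The letters AGATAA, which GATA factors bind, stood on either strand in 6 of the 76 windows (7.89%) and in 0 of the 22. Its share was 8.13% of all windows and 5.57% of those of genes above background. AGGTCA, a core element of many nuclear receptor sites, stood in 11 of the 76 (14.5%) and 5 of the 22 (22.7%), against 13.9% of all windows and 11.6% of those of genes above background. These are descriptions of letters, and methylation and binding were not measured.

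The endoderm genes were lower in the knockout line. Of the 46 endoderm genes measured (primitive, parietal or visceral) 23 fell and 1, Krt19, rose, and their median change was -0.76 against 0.13 over all genes. Without replicate 3 the counts were 21 and 1, and with run and chip lot as blocks 24 and 1. Over all genes these settings called 1231 and 1301 genes lower, whereas leaving out the run block called 730. The falls covered transcription factors, receptors and secreted proteins, and Srgn is 1 of the 23. In bulk RNA, fewer cells of a type and less RNA per cell cannot be told apart.

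Among the transcription factors, Gata6 read 1897, 1768 and 1990 in wild type cells and 632.9, 404.1 and 80.87 in knockout cells, and fell by 2.67 ± 0.313 (log2 scale; limma adjusted p = 3.75e-06). Its partner in primitive endoderm, Gata4, read 848.7, 780.5 and 683.4 against 163.3, 139.5 and 42.68. Sox17 read 1929, 1904 and 2586 against 323.8, 262.5 and 44.57. The groups were far apart for each of these factors, and replicate 3 was the lowest array. Sox7 fell by 2.83, Foxa1 by 1.64, Foxa2 by 1.58 and Hhex by 1.12 on the log2 scale.

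Genes of the endocytic receptor complex of visceral endoderm and kidney were among the largest falls. Cubn, which encodes the receptor cubilin, read 11610, 12038 and 8428 in wild type cells and 1175, 1302 and 56.88 in knockout cells, and fell by 4.45 ± 0.522 (log2 scale; limma adjusted p = 3.9e-06). Amn, its membrane anchor, fell by 2.75. Dab2, a clathrin adaptor of such receptors, went from 10778, 10335 and 8214 to 1470, 1563 and 124.4. Both were lowest on replicate 3. Lrp2, the partner receptor megalin, had a change of -0.65 and was not called (adjusted p = 0.164).

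Pdgfra, a receptor tyrosine kinase of primitive endoderm, fell from 1961, 2046 and 2219 to 187.3, 172.4 and 49.57, or by 3.94 ± 0.309 (log2 scale; limma adjusted p = 9.9e-09). Apoe, an apolipoprotein made by visceral endoderm, fell by 2.59 and the collagen chaperone gene Serpinh1 by 2.80 on the log2 scale. Krt8 fell by 2.20 and Krt18 by 0.88, although the arrays of Krt18 overlapped. Krt19 was the exception, at 140.5, 117.7 and 132.2 in wild type cells and 2455, 2246 and 325.5 in knockout cells. It rose by 3.09 ± 0.497 (limma adjusted p = 0.000179), with replicate 3 far below the other knockout arrays.

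The summed signal of the 46 endoderm genes was 117772, 118285 and 105647 on the wild type arrays, and 41538, 41600 and 21273 on knockout replicates 1, 2 and 3. Replicate 3 was the lowest knockout array for 14 of the 23 genes that fell, and for 664 of the 1414 genes that fell in all. The same order was seen in the RA group, where the knockout array of that run, which had no raised background, summed to 24415 and the other knockout arrays to 48316 and 48156. The wild type arrays of that run summed to 105647 in vehicle and 108879 in RA, close to the others. What set this run apart in the knockout was not tested.

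Basement membrane genes fell with them. Of 39 measured genes of basement membrane and matrix 13 fell and none rose (median -0.21), and 11 fell without replicate 3. The 3 chains of the main laminin of early embryos were among them: Lama1 read 9260, 9808 and 8390 in wild type cells and 2190, 2346 and 219.1 in knockout cells, a fall of 3.10 ± 0.396 (log2 scale; limma adjusted p = 1.17e-05). Without replicate 3 the fall of Lama1 was 2.45. Lamb1 fell by 1.86 and Lamc1 by 1.17. The chains of type IV collagen, Col4a1 and Col4a2, fell by 2.04 and 2.05 on the log2 scale, or by 1.45 and 1.88 without replicate 3. The linker Nid1 fell by 1.07. Some bright members of the list were not called, among them Nid2 (change -0.23, limma adjusted p = 0.302), Fn1 (change -0.17) and Dag1 (change -0.06). P4ha1, P4ha2 and Plod1, enzymes that hydroxylate collagen, fell by 1.59, 1.09 and 1.14. Sparc, a matrix protein of parietal endoderm, read 17347, 18498 and 6500 in knockout cells, and its fall of 1.02 lost its call without replicate 3 (adjusted p = 0.0759). Among proteoglycans and their enzymes 7 of 38 fell and 2 rose, with Srgn, Gpc4 (by 1.15) and Sdc4 (by 0.96, or 0.64 without replicate 3) among the falls.

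Lysosomal genes were lower over a broad front, with 20 of 35 measured genes down and 1 up (median -0.68). The counts were 19 and 0 without replicate 3, and 23 and 1 with run and lot as blocks. Over all genes, leaving out the run block cost more calls than either of these settings. Ctsc, which encodes the protease cathepsin C, read 6086, 6564 and 6924 in wild type cells and 958.6, 963.6 and 1252 in knockout cells. It fell by 2.62 ± 0.122 (log2 scale; limma adjusted p = 5.36e-12), and here replicate 3 was the highest knockout array. Hexa, the alpha chain of hexosaminidase, fell by 2.41 and the protease gene Lgmn by 1.94. Ctsl, one of the brightest genes of the list, went from 28600, 30712 and 31015 to 12796, 12584 and 9922. Ctsb fell by 1.35, Neu1 by 1.68 and the membrane protein gene Lamp1 by 0.90 on the log2 scale.

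Genes of cholesterol synthesis and uptake also fell, 17 of 28 with none up and a median of -0.57, and 16 without replicate 3. Hmgcs1, which makes the precursor HMG-CoA, fell by 1.10 ± 0.131 (log2 scale; limma adjusted p = 4.55e-06) from 15086, 17298 and 9144 to 6699, 7110 and 5035. Tm7sf2, a sterol reductase gene, fell by 1.35 and Msmo1, a sterol oxidase gene, by 1.01. Srebf2, the transcription factor that drives the pathway, fell by 0.75 and its target Insig1 by 0.88. The falls of Fdps and Sqle, both of 0.52, came with arrays that overlapped. The count was 7 without the run block.

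**Figure D3:**
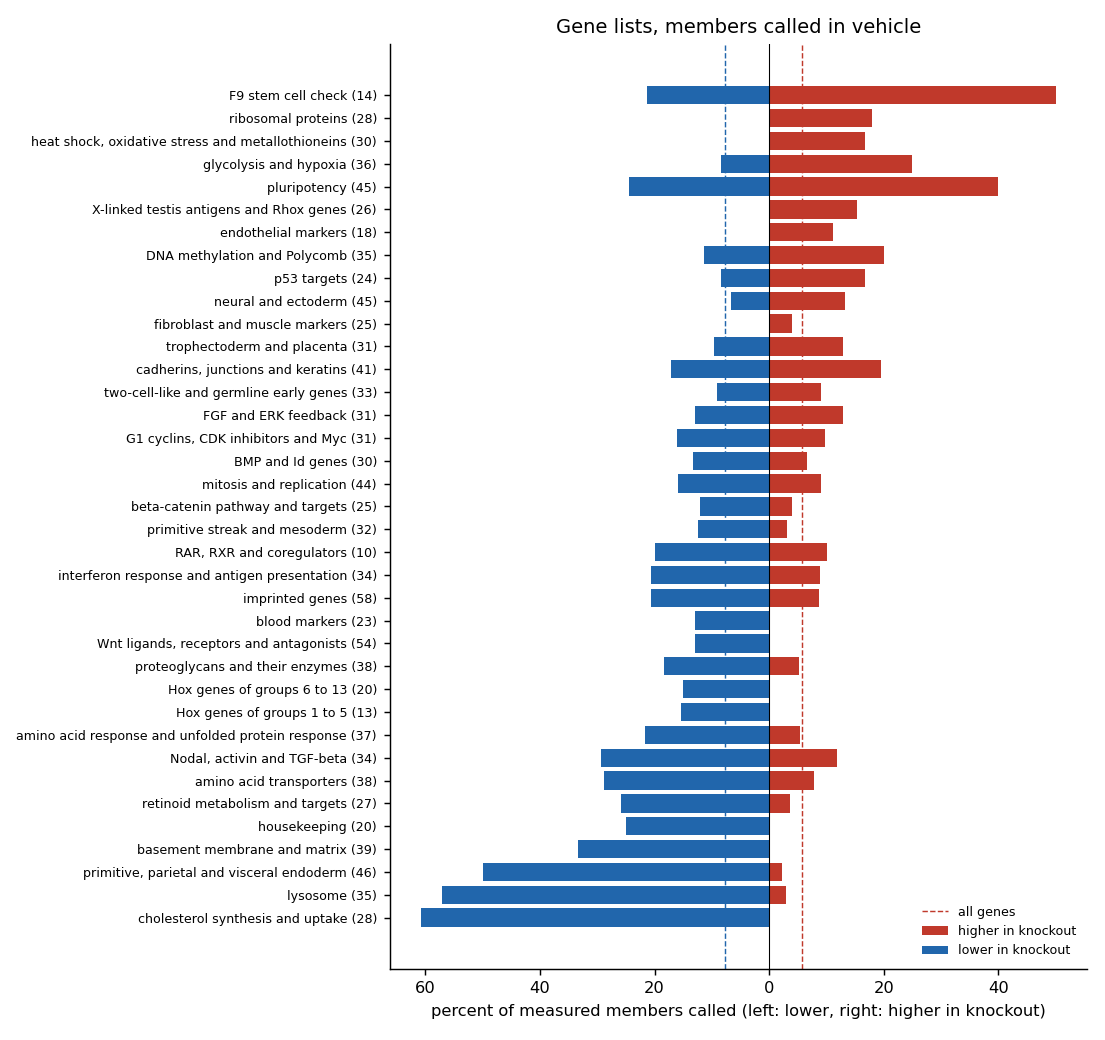
Percent of the measured members of each of 37 gene lists called lower (blue, left) or higher (red, right) in the knockout in vehicle, with the number of measured members in brackets and the shares over all genes (5.78% higher, 7.77% lower) as dashed lines. The lists of cholesterol synthesis, lysosome and endoderm have the largest shares of lower genes and the pluripotency lists the largest shares of higher genes.

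The cells were checked against markers of the F9 stem cell state. Pou5f1 read 17908, 16708 and 22271 in wild type and 12219, 14928 and 16376 in knockout cells (change -0.39, limma adjusted p = 0.0618). Nanog (change 0.22, adjusted p = 0.292) and Sall4 (change -0.20, adjusted p = 0.43) did not pass either. Of 14 such markers 7 rose and 3 fell, and their summed signal was 96919 to 108593 in wild type and 115025 to 121549 in knockout cells. Fut4, which makes a surface antigen of these cells, had means below background in both lines, 67.4 and 19.6. Alpl was at 921 and 293, and the means of the other 12 markers were 1426 or more in both lines. All of these markers but Fut4 are also among the pluripotency genes below, whose excess of higher members depends on the scaling.

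Of 45 measured pluripotency genes 18 rose and 11 fell (median 0.33), and 17 and 10 without replicate 3. Otx2, a factor of the epiblast after implantation, rose from 440.9, 679.8 and 701.4 to 3538, 3644 and 2822, or by 2.45 ± 0.175 (log2 scale; limma adjusted p = 2.72e-09). Dnmt3l, a cofactor of de novo DNA methylation, rose from 1457, 1548 and 1952 to 9358, 9499 and 5529. Epcam, a surface adhesion molecule, rose by 1.63, Klf2 by 1.04, Fgf4 by 0.98 and Tdgf1, the Nodal co-receptor Cripto, by 0.98. Sox2 and Zfp42 rose by 0.59 and 0.63.

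Factors of the naive stem cell network moved both ways, with Klf2, Zfp42 and Nr5a2 (by 0.82) among the rises. Tfcp2l1 read 5007, 5098 and 2946 in wild type cells and 1505, 1311 and 621.4 in knockout cells, a fall of 1.96 ± 0.126 (log2 scale; limma adjusted p = 5.57e-10). Only 1 of 3 probe sets of Tfcp2l1 was called. Tbx3 fell by 1.52, Klf4 by 1.12 and Esrrb by 0.99. Alpl, the alkaline phosphatase of stem cells, fell by 1.68 and Cd9 by 0.75 on the log2 scale. Under centring on the median 3 of the 45 genes were called higher and 9 lower, so the excess of higher members depends on the scaling. The list's median was 0.34 with quantile normalization and 0.11 with centring.

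Of 34 genes of Nodal, activin and TGF-beta signalling 10 fell and 4 rose (median -0.15). Inhbb, a subunit of activin B, read 2420, 2498 and 2824 in wild type cells and 652.3, 764.3 and 851.5 in knockout cells, and fell by 1.75 ± 0.131 (log2 scale; limma adjusted p = 4.36e-09). Lefty2 and Lefty1, Nodal inhibitors, fell by 1.70 and 0.95, while Nodal itself rose by 0.47 with arrays that overlapped. The receptors Tgfbr3 and Tgfbr2 fell by 1.71 and 1.24. Tgfbi, a matrix protein induced by TGF-beta, read 851.2, 882.1 and 926.1 in wild type cells and lay at or below background on all 3 knockout arrays, which is at least 8.44-fold lower.

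Of 54 Wnt ligands, receptors and antagonists 7 fell and none rose (median 0.09). Besides Dkk1 these were its relative Dkkl1, the secreted antagonists Sfrp2 (by 2.07) and Sfrp1 (by 1.37, with overlap), the receptor Fzd7 (by 0.78) and the genes for Wnt secretion Wls (by 0.95) and Porcn (by 0.73). Dkkl1 was at least 2.2-fold lower, with the knockout arrays at background. Of 25 genes of the beta-catenin pathway and its targets 3 fell and 1 rose, and Tcf7l1, a repressor of that pathway, was the one higher, by 0.72.

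Of 31 genes of FGF and ERK feedback signalling 4 fell and 4 rose. Klb, the co-receptor beta-Klotho, went from 1892, 1711 and 2078 to 220.5, 182.8 and 151.8, a fall of 3.26 ± 0.203 (log2 scale; limma adjusted p = 3.2e-10). Dusp4, a phosphatase of MAP kinases, fell by 2.50 and the receptor gene Fgfr2 by 1.51, whereas the ligand gene Fgf4 rose. Of 30 BMP and Id genes 4 fell and 2 rose, with Bmp6 lower by 2.65 and its extracellular modulator Bmper lower by 2.63 on the log2 scale. Id2 rose by 0.95.

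Genes of the retinoid pathway differed before any RA was added. Of 27 genes of retinoid metabolism and known RA targets 7 fell and 1 rose (median 0.24), and 6 and 1 without replicate 3. Cyp26a1, the enzyme that breaks RA down, read 895.7, 1013 and 556.5 in wild type cells and 343.3, 202.1 and 369.2 in knockout cells, a fall of 1.38 ± 0.239 (log2 scale; limma adjusted p = 0.000392). The RA carrier gene Crabp2 read 223.8, 168.7 and 134.2 and lay at or below background in the knockout, at least 1.64-fold lower. Fabp5, another RA and fatty acid carrier, fell by 1.25 and Rdh10, which oxidises retinol to retinaldehyde, by 1.05. Stra8, named for its induction by RA, went the other way, from 1513, 1723 and 2255 to 3071, 2958 and 3594.

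Of 10 genes of RAR, RXR and their coregulators 2 fell and 1 rose. Rarb, an RAR that is itself an RA target, read 222.4, 230.7 and 180 in wild type cells and 87.68, 66.8 and 80.29 in knockout cells, near the background level. It fell by 1.27 ± 0.203 (log2 scale; limma adjusted p = 0.000171). Rara rose by 0.71 (adjusted p = 0.0126) and lies on chromosome 11, described below. Nrip1, a corepressor gene, fell by 0.44 with arrays that overlapped.

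Hox genes were mostly at background, with 4 of 13 genes of groups 1 to 5 and 1 of 20 genes of groups 6 to 13 above it. Hoxa5 read 947.8, 844.2 and 524.7 in wild type cells and 38.02, 17.79 and 79.79 in knockout cells, where it did not exceed background, so that it was at least 7.13-fold lower (limma adjusted p = 4.53e-09). Hoxa3, Hoxa10, Hoxa11 and Hoxa9 were lower by at least 1.62, 2.87, 2.04 and 1.39-fold. All 5 genes called belong to the Hoxa cluster, and no Hox gene rose. Only 1 of 2 probe sets of Hoxa5 was called, 1 of 4 of Hoxa3 and 1 of 2 of Hoxa10. Hoxa9 passed narrowly (limma adjusted p = 0.0487).

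Imprinted genes included some of the largest changes in both directions. Of 58 measured, 12 fell and 5 rose (median 0.13), and 7 and 4 without replicate 3. Meg3 and Rian, maternally expressed non-coding RNAs of 1 cluster, both fell. Meg3 read 1511, 1880 and 648.1 in wild type cells and 18.04, 131.5 and 166.4 in knockout cells, although 5 of its 11 probe sets were called, all lower. Rian was at least 3.68-fold lower. Sgce fell by 1.80, and Plagl1, a paternally expressed zinc finger gene, fell by 1.70 with overlap.

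Besides Slc38a4, the imprinted genes Cdkn1c (by 1.61), Grb10 (by 0.86), Phlda2 and Gab1 (by 0.63) rose. Phlda2 read 4.736, 5.246 and 31.11 in wild type cells and 70.14, 29.12 and 219.9 in knockout cells, with overlap, and it was not called without replicate 3 (adjusted p = 0.166). Grb10 lies on chromosome 11.

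Genes known mainly from germ cells were among the largest rises. Of 26 X-linked testis antigens and Rhox genes 4 rose and none fell, and 20 of the 26 had a mean at or below background. That list leaves out the X-linked Rhox5, which fell and is counted with the early germline genes below. Mageb16 read 125.7, 53.74 and 211.1 in wild type cells and 1278, 1233 and 1262 in knockout cells, a rise of 3.28 ± 0.272 (log2 scale; limma adjusted p = 2.37e-08). Nxf3 was at least 2.88-fold higher, and Gm364 rose by 1.17. Pnma5, also X-linked, rose by 2.66.

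On the autosomes, the meiotic recombination gene Rec114 read 149.8, 57.87 and 107 against 749.6, 971 and 918.4 and rose by 2.96 ± 0.28 (log2 scale; limma adjusted p = 2.11e-07). Tdrd12, of the pathway that silences transposons in germ cells, rose by 2.19 and Tex19.1, another germ cell gene, by 1.48. Of 33 two-cell-like and early germline genes 3 rose and 3 fell, so that the list as a whole had no common direction. Rhox5, an X-linked homeobox gene, was bright in both lines, and it was one of 3 in that list that fell (by 0.82).

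The rule for the largest changes named further genes. Aire, known for its role in thymus, rose from 55.5, 116.8 and 166.1 to 1811, 2070 and 1509, or by 3.90 ± 0.32 (log2 scale; limma adjusted p = 2.02e-08). The non-coding RNA Lncenc1 was at least 8.08-fold higher and the lysine-degrading enzyme gene Aass at least 4.06-fold higher. Rpl39l, a copy of a ribosomal protein gene, rose by 2.81, and probes may not separate it from its relative. The snoRNA host genes Snhg3, Snhg4, Snhg5 and Snhg11 rose by 2.78, 1.83, 1.63 and 1.76. Zfp750 was at least 2.49-fold higher. Irgm2, on chromosome 11, had a knockout mean of 99.6 but was not above its own array's receptor level on any of the 6 arrays, so no fold is given.

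Among the largest falls outside the lists were metabolic and membrane genes. Pcbd1, which encodes an enzyme of biopterin recycling, read 901.2, 819.6 and 1139 in wild type cells and was at background in the knockout, at least 8.99-fold lower (limma adjusted p = 9.07e-11). Fbp2, a fructose bisphosphatase gene, fell from 5801, 6578 and 6463 to 733.9, 909.5 and 359.8. Nostrin was at least 4.95-fold lower, and the meprin subunit gene Mep1b and the transcription factor gene Tfec fell by 3.40 and 3.32. P2rx3, an ATP-gated channel gene, fell by 2.81, Mymx by 2.86 and Runx1 by 3.00 on the log2 scale.

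Of 30 genes of heat shock, oxidative stress and metallothioneins 5 rose and none fell (median 0.20). Mt1 and Mt2, which bind zinc and copper, rose by 1.93 and 1.80, and Mt2 read 5595, 5662 and 5121 in wild type cells against 19422, 20103 and 17730 in knockout cells (limma adjusted p = 1.57e-10). Of 36 genes of glycolysis and hypoxia 9 rose and 3 fell, and 24 did not pass. The lactate exporter gene Slc16a3 rose by 1.64, Bnip3 by 1.33 and the phosphofructokinase gene Pfkp by 0.97, whereas the falls were those of P4ha1, P4ha2 and Hif1a. Slc2a1, the main glucose transporter gene, rose by 0.78 with overlap, since wild type replicate 3 read 21990 and the others 10859 and 11267. Under centring 2 of the 36 genes were higher and 3 lower.

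Amino acid transporters fell more often than they rose, 11 against 3 of 38 (median -0.16), in spite of the rise of Slc38a4. Among all genes above background 13.1% fell and 9.4% rose. Slc1a1, a glutamate transporter gene, rose from 183.1, 170.8 and 202.7 to 982.6, 691 and 733.2, and Slc43a2, on chromosome 11, rose by 1.09. The falls included Slc36a4 (by 1.61), the cationic transporter gene Slc7a2 (by 1.19) and the glutamine transporter gene Slc1a5 (by 0.97). Of 37 genes of the amino acid and unfolded protein responses 8 fell and 2 rose. Atf5, a stress transcription factor, fell by 1.51, Chac1 by 0.90 and the chaperone gene Calr by 0.80.

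Of 35 genes of DNA methylation and Polycomb 7 rose and 4 fell, and 4 of the 7 lie on chromosome 11. Dnmt3a, a de novo methyltransferase gene, fell from 3443, 2238 and 2912 to 984.5, 1129 and 873.7, or by 1.50 ± 0.147 (log2 scale; limma adjusted p = 3.45e-07). Its relative Dnmt3b fell by 0.98, while Dnmt3l, their cofactor with no enzyme activity of its own, rose by 2.26. Suz12, a core Polycomb subunit, rose by 0.97 and lies on chromosome 11.

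Of 31 G1 cyclins, inhibitors and Myc genes 5 fell and 3 rose, with Ccnd2, cyclin D2, lower by 1.93 ± 0.139 (log2 scale; limma adjusted p = 3e-09) and E2f2 lower by 1.51. Of 44 genes of mitosis and replication 7 fell and 4 rose, and of 24 p53 targets 2 fell and 4 rose. Among all genes above background the shares were 13.1% lower and 9.4% higher, so the mitosis list lay near them. Of 28 ribosomal protein genes 5 rose and none fell, none of them under centring. Of 20 housekeeping genes 5 fell, among them the lysosomal enzyme gene Gusb (by 1.46) and B2m (by 0.86).

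B2m was 1 of 7 genes of antigen presentation and interferon response that fell, of 34 measured, while 3 rose. H2-D1, an MHC class I gene, fell by 1.11, H2-K1 by 0.63 and the peptide transporter gene Tap1 by 1.29. Only 2 of 9 probe sets of H2-D1 and 1 of 4 of Tap1 were called. Tapbp, of the same list, rose by 0.74. Psmb9, an immunoproteasome subunit, was at least 2.04-fold lower. Irf1, a transcription factor of this response, rose by 1.11 and lies on chromosome 11.

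Epithelial adhesion genes split. Of 41 cadherin, junction and keratin genes 8 rose and 7 fell (median -0.02). Dsg2, a desmosomal cadherin, fell by 1.65, Gjb5, a connexin, by 1.57 and Cdh1, E-cadherin, by 0.73. Grhl2 and Esrp1, regulators of epithelial genes, rose by 1.92 and 1.88 and the desmosomal plakophilin gene Pkp2 by 1.45. Of 45 neural and ectoderm genes 6 rose and 3 fell, with Stmn2, a regulator of microtubules, higher by 2.14. Of 32 genes of the primitive streak and mesoderm 1 rose and 4 fell, and of 31 genes of trophectoderm and placenta 4 rose and 3 fell.

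Markers of cells that the culture should not hold were mostly low, with exceptions among the blood and endothelial markers. Of 25 fibroblast and muscle markers 19 had a mean at or below background and 1, Mfap5, rose, a call that was lost without replicate 3 (adjusted p = 0.287). Their summed signal was 1800 to 2370 in wild type and 1574 to 3538 in knockout cells. Of 23 blood markers 3 fell, Coro1a, Cd68 and Laptm5, with summed signals of 3563 to 6096 in wild type and 2882 to 4158 in knockout cells. The arrays of Cd68 overlapped, and Laptm5 was not called without replicate 3 (adjusted p = 0.113). Laptm5 was bright, with means of 2599 in wild type and 1744 in knockout cells, and Coro1a had means of 516 and 220. The defining markers Ptprc, Cd3e and Spi1 had means below background in both lines, and Cd79a had a mean of 96.8 in the knockout, near that level. Of 18 endothelial markers 2 rose, Pecam1 by 1.21 and Tek, at least 2.61-fold higher, with Tek not called without replicate 3 (adjusted p = 0.0851). Their sums were 3124 to 4051 and 3855 to 4404, and Cdh5 and Vwf had means below background in both lines. Other endothelial markers were well above background in both. Wild type and knockout means were 662 and 776 for Eng, 597 and 773 for Robo4, 628 and 402 for Esam and 613 and 444 for Egfl7.

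The higher genes were concentrated on chromosome 11. Gene positions were taken from RefSeq (GRCm38.p6) and used only for order and chromosome. Over the 913 chromosome 11 genes above background the median change was 0.35, and 292 of them (32.0%) were called higher and 51 lower. The medians of the other autosomes and of the X chromosome ran from -0.08 to 0.07. The chromosome 11 median was 0.27, 0.36 and 0.38 in the 3 runs, 0.36 without replicate 3, and 0.35 between the RA arrays of the lines. Chromosome 11 held 8.63% of the genes above background with a known chromosome and 29.3% of those called higher.

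The shift did not cover the whole chromosome. In blocks of about 40 neighbouring genes, the first 2 of 22 blocks of chromosome 11, from Sfi1 to Slc1a4, had medians of -0.02 and -0.06. All 20 blocks after them, from Sertad2 to Metrnl, had medians of 0.21 to 0.63. In 13 of the 22 the median was above 0.2 in each of the 3 runs, which held for none of the 233 blocks elsewhere. In 12 it was above 0.2 in the RA arrays of each run as well. In the other direction, 1 block elsewhere lay below 0 by more than 0.2 in each of the 3 runs, and none on chromosome 11 did. Block medians elsewhere ran from -0.32 to 0.31. Of the 821 genes from B3gnt2 onward 78.6% had a change above 0, against 44.6% of the 92 genes up to Tmem17 and 47.4% of genes on other chromosomes.

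The genes called higher on chromosome 11 had a median change of 0.70, against 0.73 for the 704 called higher elsewhere. A change above 1 on the log2 scale was seen in 40 of them (13.7%) and in 152 of the 704 (21.6%), a difference that was not tested. Krt19, Zfp750, Irgm2, Slc16a3, Pecam1, Tex19.1, Irf1, Grb10, Suz12, Rara and Slc43a2, named above, all lie there. In the RA arrays 238 of the 292 were called higher again. DNA copy number was not measured.

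**Figure D4:**
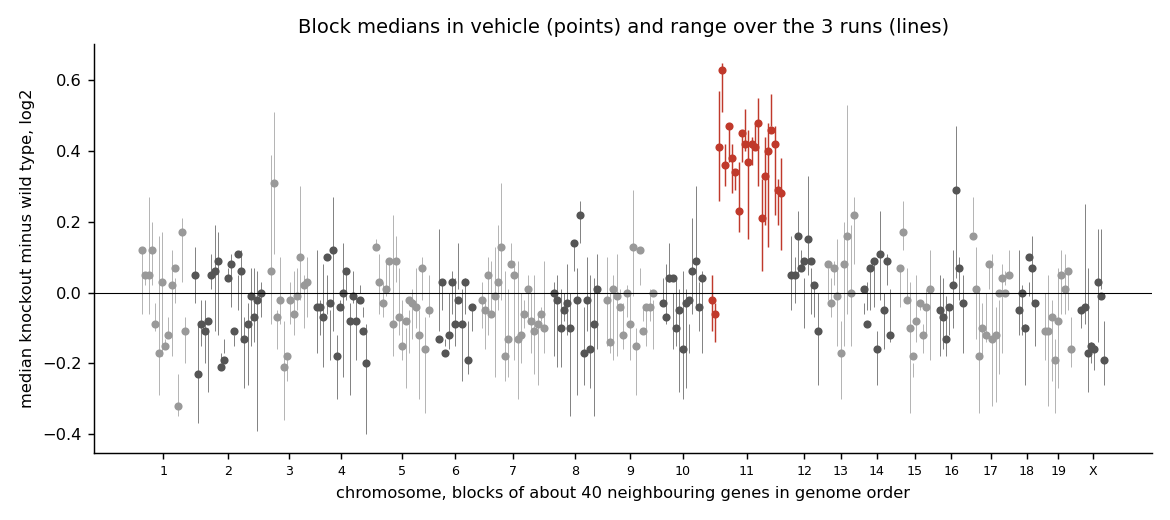
Median knockout minus wild type difference in vehicle, on the log2 scale, over blocks of about 40 neighbouring genes above background in genome order, with the range over the 3 runs as a line. The blocks of chromosome 11, in red, lie between 0.21 and 0.63 after the first 2, while those of other chromosomes lie between -0.32 and 0.31.

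The same difference was then read on the 6 arrays that the vehicle comparison did not use, those of the lines in RA, where 14.5% of genes were called in either direction. Of the 1051 genes higher in vehicle 1011 were also above 0 in RA and 679 (64.6%) were called higher there. Of the 1414 lower genes 1393 were below 0 and 947 (67.0%) were called lower, and no gene of either set was called the opposite way. The median change of the higher genes was 0.74 in vehicle and 0.64 in RA, and that of the lower genes -0.81 and -0.69. These arrays came from the same lines, ran in the same 3 runs and share the estimate of the spread with the vehicle arrays. Without the run block the counts called in both were 289 and 482.

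Srgn fell by 5.25 in RA, Mest by 4.60 and Dkk1 by 3.19 on the log2 scale, while Slc38a4 rose by 5.12 and Fmr1nb by 3.77. Gata6 fell by 2.04 and Cubn by 4.26 there. In the endoderm list 23 genes were lower and 1 higher in RA, as in the vehicle, and in the lysosome list 18 and 2. In the cholesterol list 8 of the 28 were lower in RA and none higher. Hox genes of groups 1 to 5, which RA induces in F9 cells, had 2 lower in vehicle and 8 lower in RA.

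**Figure D5:**
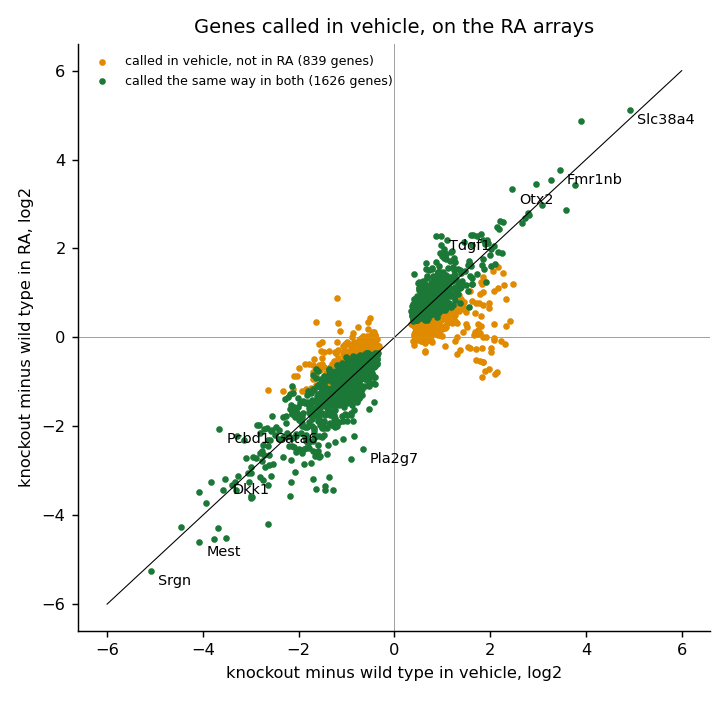
Knockout minus wild type difference in RA against the same difference in vehicle, both on the log2 scale, for the 2465 genes called in vehicle. Green points are the 1626 genes called the same way in both and orange points the 839 others, with Pcbd1 and Pla2g7 away from the line of equal difference.

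The difference between the lines itself changed with RA in 16 genes (0.0879% of 18193) by the interaction term of the same limma fit, 9 of which were called in vehicle. Tdgf1 rose by 0.98 in vehicle and by 2.29 in RA, a difference of 1.31 ± 0.159 (adjusted p = 0.00188). Fgf4 rose by 0.98 and 2.07 and Utf1, another stem cell gene, by 0.41 and 1.43. Pcbd1 was at background in the vehicle arrays of the knockout and read 172.7, 178 and 192.9 in its RA arrays, where it fell by 2.06 on the log2 scale. The size of its interaction term rests on those background values. The remaining 2456 genes called in vehicle had no detected change of their difference, which does not show that it was the same.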

How the data were processed

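Expression was measured on 12 Affymetrix Mouse Genome 430 2.0 arrays. The deposited values are MAS5 signal intensities, linear and scaled per array, per the submitters' processing notes. They hold no counts, so the number of arrays sets the precision. Groups follow the labels and replicates are numbered in accession order. Arrays are paired by the fluidics run, not by a number in the labels. The run and chip lot come from the headers of the deposited scanner records. Control probe sets were left out, and log2(signal + 16) of the other 45037 was fitted with limma 3.58.1 in R 4.3.3 (lmFit, eBayes with an intensity trend), with 4 groups and the run as a fixed block, 6 residual degrees of freedom and Benjamini-Hochberg adjustment over all probe sets (threshold 0.05). The test was run on simulated data with independent noise. That check cannot show how calls behave with a bright array or with chip lots. A gene stands for its probe set with the highest mean. Its symbol comes from the platform annotation. Other probe sets of a called gene were not always called. Among others, the call held in 1 of 3 probe sets for Tfcp2l1, Tgfbr2 and Slc43a2. It held in 1 of 4 for Slc7a2 and Hif1a and in 1 of 6 for Nrip1.

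Named genes are Rarg, the 5 markers, the 15 largest rises and 15 largest falls called with and without knockout replicate 3, and up to 3 called members of each list. Other genes were chosen after their values were seen. The members and lists were chosen with earlier results of these data known. A gene at or below each array's own receptor level on all arrays of a group has a bound, "at least N-fold", against the higher of that level and its own signal. Alternatives were other blocks, scalings, pseudocounts, filters, weights and leaving out each array. The blocks of chip lot were added after seeing the data.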

Additional observations from a re-analysis of the deposited data

Results flagged for a closer look

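The difference between the lines itself changed with RA in 9 of the genes called in vehicle, by the interaction term of the limma fit. Each value that follows is the difference in RA minus that in vehicle, on the log2 scale. It was positive for Pcbd1 (1.59), a value that rests on knockout arrays at background in vehicle, so its size is not known. It was also positive for Tdgf1 (1.31), Fgf4 (1.09) and Utf1 (1.02), whose rises were larger in RA, as were those of the galectin gene Lgals3 (1.42) and the elongation factor gene Tcea3 (1.11). It was negative for the phospholipase gene Pla2g7 (-1.84), the PI3 kinase subunit gene Pik3r1 (-1.36) and the transcription factor gene Sox4 (-1.02), which fell further in RA. Adjusted p-values ran from 0.00188 for Tdgf1 to 0.0453 for Tcea3. Groups of 3 arrays were not screened for single outlying values.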

How the results depend on the processing

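No gene of the 210 followed besides Rarg changed direction, which the choice of called genes made likely, and 102 kept their call under all 26 settings. Counts are given as probe sets, genes higher and genes lower, against 4235, 1051 and 1414 as reported. At an adjusted p of 0.01 they were 2509, 588 and 942. They were 1940, 438 and 730 with no run block, 2603, 613 and 927 with the run as a random block, and 1026, 219 and 423 in the 6 vehicle arrays with no run block. Centring each array on its median gave 1782, 125 and 928, and no intensity trend gave 1166, 248 and 435. Run and chip lot as blocks without knockout vehicle replicate 3 gave 1133, 237 and 468. The cause was not tested. The genes called the same way in RA were 289 higher and 482 lower with no run block. Leaving out 1 array gave 3252 to 4336, 735 to 1072 and 1092 to 1451. The change of Rarg, never called, was -0.05 under centring, -0.03 with run and lot as blocks and -0.1 with replicate 3 also left out, and ran from 0.06 to 0.35 when 1 array was left out. The chromosome 11 median was 0.36 without replicate 3. The fit as reported pairs the arrays by run, since each run holds 1 array of every group, and the labels give no other pairing.

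The arrays give relative signal, so genes near the level of receptor probe sets have only bounds. That level was 231.6 on knockout vehicle replicate 3, which limits what that array adds for dim genes. Chip lot and genotype cannot be told apart in vehicle once that array is left out.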
